A study of Mus musculus with 7 samples.

Results

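Ketone bodies are made in the mitochondria of hepatocytes during fasting, when fatty acid oxidation yields more acetyl-CoA than the liver can burn. Acat1 joins acetyl-CoA units into acetoacetyl-CoA and can also run in reverse, and Bdh1 reduces acetoacetate to beta-hydroxybutyrate. Monocarboxylate transporters carry both acids across the plasma membrane. Oxct1 (SCOT) activates acetoacetate for breakdown in heart, muscle, brain and other tissues, while hepatocytes are known for having very little Oxct1.

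This report covers 5 genes of synthesis, export and use, Acat1, Bdh1, Slc16a1, Slc16a7 and Oxct1, in the livers of fasted mice. They were chosen by name: every non-control probe whose gene name in the array files was 1 of these 5 was taken, which gave 8 probes for 5 of the 36492 gene names on the array. Livers came from 3 wildtype (WT) and 4 SHIVA mice, all C57BL/6 females 8 to 12 weeks old and fasted for 24 h, with 1 single-colour array per mouse. SHIVA mice descend from chemical (ENU) mutagenesis and carry a point mutation in the DNA-binding HMG domain of the transcription factor Sox17. Viable mutants are heterozygous according to the study's methods. The mutation is carried in the germline and so by all cells of the liver, and the line was kept by backcrossing to C57BL/6. The study asked how this mutation alters the liver's response to fasting.

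No fed mice are among these samples, so that every value below is a level or a difference in the fasted state. All 5 genes were well above background on all 7 arrays. None differed between the genotypes at an adjusted p under 0.05 in limma's test. Differences (SHIVA minus WT, log2 scale) ranged from -0.33 for Slc16a7 to 0.52 for Oxct1, with 3 genes lower and 2 higher and a median of -0.05. In the same test 75 of 20002 genes, or 0.375%, passed, and 2667 had an unadjusted p under 0.05, which 0 of the 5 genes had. The median difference over all genes tested was -0.0074.

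Of each array's 55681 probes, between 44.5% and 48.7% were well above background and no spot was saturated. With 7 arrays, their number is 1 limit on the precision. A single slide and scan held all of them, WT livers in row 1 and SHIVA livers in row 2, and row and genotype cannot be told apart. The hepatocyte markers Alb, Apoa1, Ttr, Cps1, Tat and Serpina1c were above background on every array, with a mean log2 signal of 16.59 to 16.76 in WT and 16.52 to 16.85 in SHIVA livers, whereas 4 of 5 muscle markers were above background on none. Sox17 itself was dim, above background on 2 WT and 4 SHIVA arrays, at 3.96 ± 0.56 (SD, n = 3) and 4.64 ± 0.13 (SD, n = 4) with an adjusted p of 0.280 in limma's fit. As the mutation is a base change, this level is no check of the labels. In whole liver, fewer cells of a type and less RNA per cell cannot be told apart.

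The sequences that read the 5 genes are shown because each value below rests on what 1 probe hybridizes to. Probes are 60 bases long, of which the first 30 are given 5′ to 3′ as deposited.
Acat1: aataatctaacatccatggacttctattct
Bdh1 probe 1: gtttaccttttgattagctgttgaggatta
Bdh1 probe 2: tgggtggccctaaacctcagggccaatatg
Bdh1 probe 3: tggtcacctcttctttgtattgggaacttc
Slc16a1: ttcaaacccctcccatgttttccttattct
Slc16a7 probe 1: ctatagacttctcgacaaggaaaggaagag
Slc16a7 probe 2: gctcattttccaaacctaaagtgtctagaa
Oxct1: gcttatcattccggtctgttactttaacgc

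In mm9, the build of the array files, Acat1 was read at chr9:53389868-53389927 on the minus strand. The Bdh1 probes lay at chr16:31457249-31457308, chr16:31457378-31457437 and chr16:31458195-31458254 on the plus strand, within 1006 bases. Slc16a1 was read at chr3:104462276-104462335 on the plus strand and Oxct1 at chr15:4105196-4105255 on the plus strand. The Slc16a7 probes lay at chr10:124665183-124665242 and chr10:124663576-124663635 on the minus strand. Exon and UTR boundaries in this build were not used here. Where a gene had several probes, the one with the highest mean signal stood for it, which was probe 2 for Bdh1 and probe 1 for Slc16a7. Signals of different probes depend on their sequence, so that levels are compared between livers for 1 probe and never between genes.

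Acat1, the mitochondrial acetoacetyl-CoA thiolase that also works in isoleucine breakdown, was the steadiest of the 5 genes in the mutant. Its log2 signal was 11.03, 11.30 and 10.75 in the 3 WT livers. In the 4 SHIVA livers it was 11.00, 10.95, 10.89 and 11.07. All mutant livers thus lay inside the WT range. The means were 11.03 ± 0.28 (SD, n = 3) and 10.98 ± 0.08 (SD, n = 4), a difference of -0.05 (SE 0.16, adjusted p = 0.927 in limma's fit). The 95% interval of the ratio of SHIVA to WT ran from 0.745 to 1.25. Ratios inside that interval remain compatible with the values of these 7 arrays.

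Bdh1, which interconverts beta-hydroxybutyrate and acetoacetate, varied more between mice of 1 genotype than between genotypes. Its signal was 11.63, 12.09 and 12.37 in WT livers. SHIVA livers gave 12.31, 11.49, 12.45 and 11.96. The lowest and the highest of the 7 values were both from SHIVA mice. The means, 12.03 ± 0.37 (SD, n = 3) and 12.05 ± 0.43 (SD, n = 4), differed by 0.02 (SE 0.27, adjusted p = 0.981 in limma's fit), and the 95% interval of the ratio reached from 0.667 to 1.55.

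**Figure D1:**
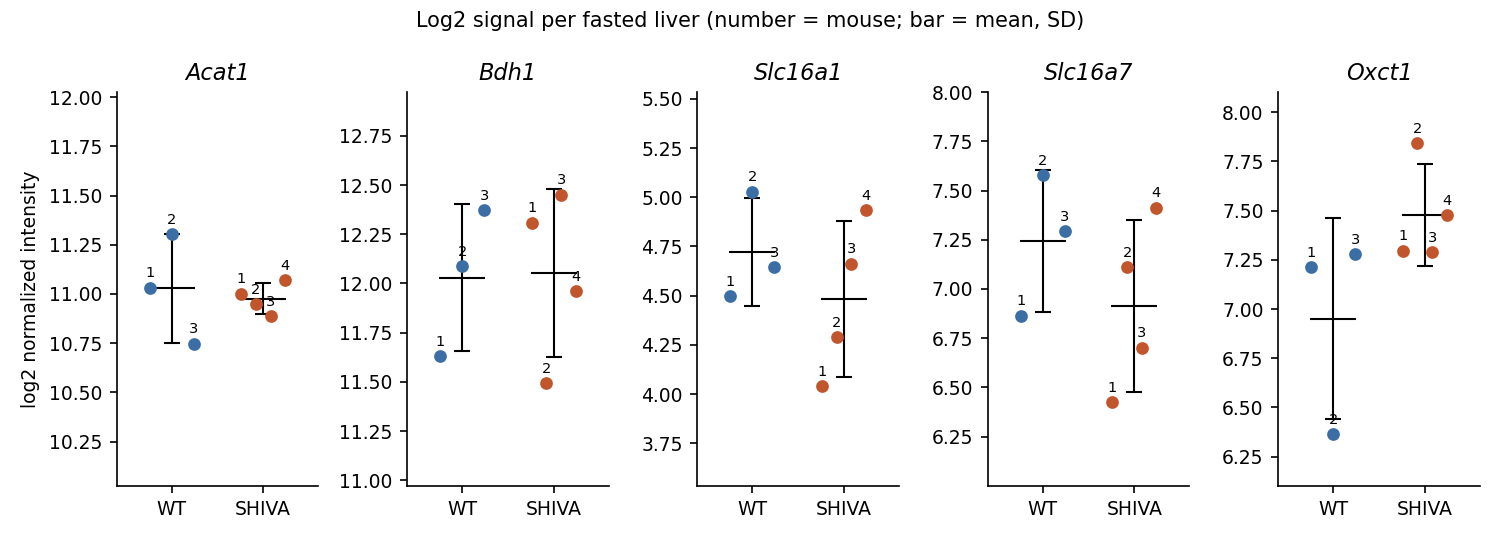
Log2 normalized intensity of each gene in every fasted liver, with WT livers (n = 3) in blue, SHIVA livers (n = 4) in orange, the mouse number above each point and the group mean with its SD in black. Each panel spans 2 log2 units. The groups overlap for Acat1, Bdh1, Slc16a1 and Slc16a7, while the Oxct1 groups are separated by 0.0083.

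The 3 Bdh1 probes gave the same livers at the low end. On probe 1, WT livers read 11.06, 11.32 and 11.76, and SHIVA livers 11.66, 10.71, 11.78 and 11.35. On probe 3, WT livers read 7.77, 8.50 and 8.96, and SHIVA livers 8.52, 7.61, 8.64 and 8.14. SHIVA replicate 2 was lowest and WT replicate 1 next on every probe. Correlations between probes over the 7 livers, a description over shared arrays, were 0.927 to 0.979. The spread among mice was thus shared by probes at separate positions. The genotype difference was -0.0037 on probe 1 and -0.18 on probe 3, with adjusted p-values of 0.997 and 0.862 in a limma fit over all probes, so that the sign of the Bdh1 difference is not settled. The 2 livers with the least Bdh1 were also the 2 with the lowest mean of the 6 hepatocyte markers, 16.52 in SHIVA replicate 2 and 16.59 in WT replicate 1 against 16.71 to 16.85 in the other 5. The markers did not all go this way. In WT replicate 1, Alb, Cps1 (14.34) and Tat (15.23) were the lowest of all livers. Its Apoa1 (16.85) was the highest WT value, and its Ttr and Serpina1c lay between those of the other WT livers. In SHIVA replicate 2, Apoa1 and Ttr were the lowest of all livers, while Alb (18.33) was not low. The part of the hepatocyte share in the Bdh1 values was not tested.

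**Figure D2:**
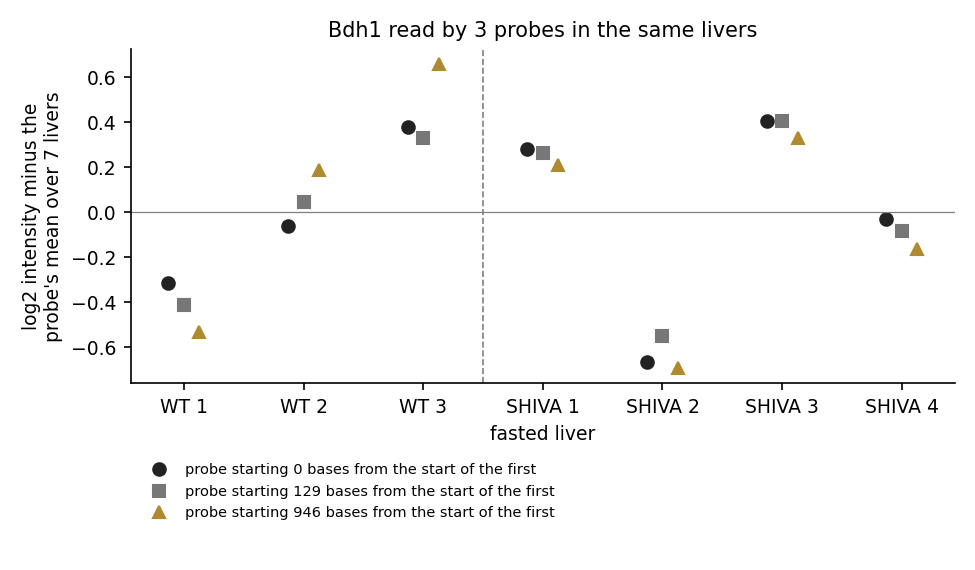
Signal of the 3 Bdh1 probes in each fasted liver, as log2 intensity minus the probe's own mean over the 7 livers, with symbols for the probes and a dashed line between WT and SHIVA livers. SHIVA replicate 2 is lowest and WT replicate 1 next on all 3 probes.

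The last steps of fatty acid oxidation, which feed acetyl-CoA to Acat1, were read for comparison. Hadha and Hadhb, the subunits of the trifunctional protein, differed by -0.26 and -0.24 (adjusted p = 0.594 and 0.630 in limma's fit), with overlapping groups. Without WT replicate 2 both differences were -0.07. Acaa2, the medium-chain thiolase, differed by -0.07 (adjusted p = 0.859). None of these passed the threshold.

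**Figure D3:**
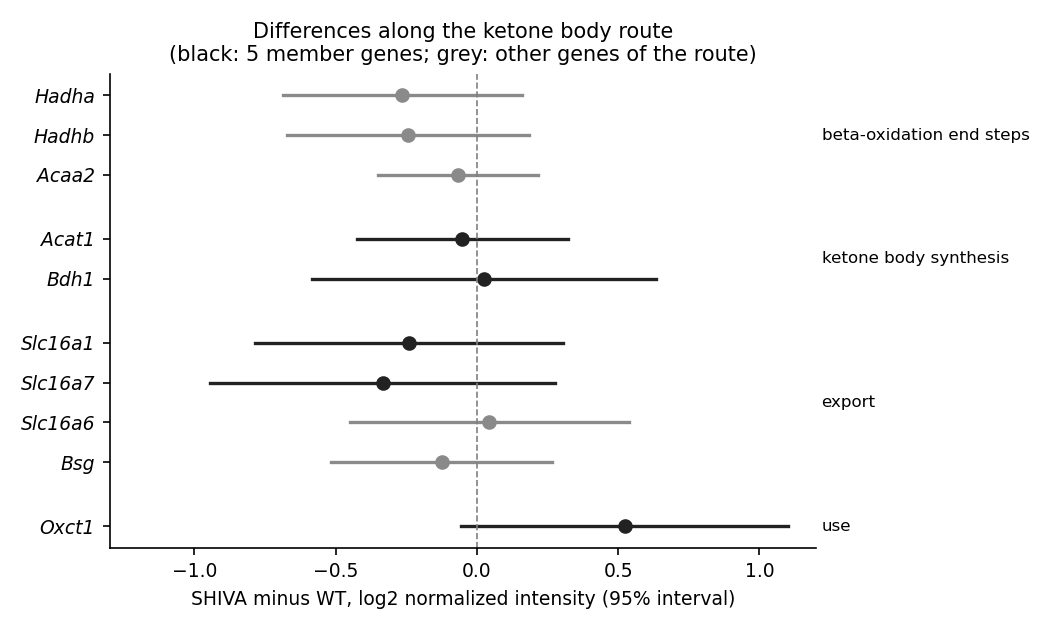
Difference between SHIVA and WT livers (log2 normalized intensity) with its 95% interval for genes along the route from fatty acid oxidation to the use of ketone bodies, the 5 member genes in black and others in grey. The intervals of all 5 members include 0.

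Slc16a1 (MCT1), the widespread transporter of lactate, pyruvate and ketone bodies, gave a dim but detected signal. WT livers read 4.50, 5.03 and 4.65. SHIVA livers read 4.04, 4.29, 4.66 and 4.94. The 2 lowest values were from SHIVA mice, while the other 2 mutants were within the WT range. The means were 4.72 ± 0.27 (SD, n = 3) and 4.48 ± 0.40 (SD, n = 4), which differed by -0.24 (SE 0.24, adjusted p = 0.727 in limma's fit). With background correction by normexp the difference was -0.06 and with array weights -0.53, and it was -0.09 without WT replicate 2 or SHIVA replicate 1 and -0.39 without SHIVA replicate 4.

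Slc16a7 (MCT2), a transporter with higher affinity for its substrates, read 6.86, 7.58 and 7.29 in WT livers. SHIVA livers read 6.42, 7.11, 6.70 and 7.41. SHIVA replicates 1 and 3 were below all WT livers and the others within their range. Means were 7.24 ± 0.36 (SD, n = 3) and 6.91 ± 0.44 (SD, n = 4), and the difference of -0.33 (SE 0.27, adjusted p = 0.647 in limma's fit) had a 95% interval of the ratio from 0.520 to 1.21. It was -0.16 without WT replicate 2, -0.17 without SHIVA replicate 1, -0.52 without WT replicate 1 and -0.71 with array weights (adjusted p between 0.175 and 0.925 over its 17 alternatives). Probe 2 of Slc16a7 was not well above background on any array and gives no fold. A probe that the array names D630004K10Rik, an older name of Slc16a7 in the RefSeq annotation of GRCm38.p6, was above background on all 7 arrays and differed by -0.25 (adjusted p = 0.647), with WT livers at 7.36, 7.75 and 7.67 and SHIVA livers at 7.28, 7.44, 6.98 and 7.68.

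Over the 7 livers Slc16a1 and Slc16a7 gave the highest correlation among the 10 pairs of the 5 genes. Pearson's r was 0.80 (exact permutation p = 0.0333, 0.333 after adjustment over the 10 pairs) and Spearman's rho 0.75 (exact permutation p = 0.0663). Livers were permuted without regard to genotype, and both genes had a lower mean in SHIVA livers. These values thus do not set the genotype difference apart from the spread among mice. Both genes had their highest SHIVA value in replicate 4, their lowest in replicate 1, and their highest WT value in replicate 2. Without the 2 livers farthest from the median Slc16a1 signal r was 0.39 over a narrower range of signal, so that the relation is not shown apart from those livers. The other 9 pairs had adjusted exact permutation p-values between 0.574 and 0.783.

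The other monocarboxylate transporters and their chaperones did not move one way. Of 16 such genes 12 were tested, 0 passed in either direction, 6 were lower and 6 higher in SHIVA livers, and the median difference was -0.014. Groups did not overlap for 3 of them, which over all genes tested was so for 12.2%. Slc16a13, a transporter expressed in liver, gave the largest difference of -1.15 (adjusted p = 0.205 in limma's fit) from a signal of 4.83 ± 0.14 (SD, n = 3) and 3.69 ± 0.64 (SD, n = 4) that was above background on 5 arrays. That difference was -0.23 with normexp correction, -0.41 with the mean signal and in the authors' table, and -0.69 with all probes averaged. Embigin (Emb), a partner of MCT2 at the membrane, differed by 0.77 (adjusted p = 0.564 in limma's fit) from a dim signal of 3.21 and 3.98. That difference fell to 0.14 without WT replicate 2 and with normexp correction and was 1.26 with array weights. Emb passed the filter on dim probes through SHIVA arrays alone. It stayed in the test without any 1 WT mouse and fell out without SHIVA replicate 1. Its direction is thus no result.

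Basigin (Bsg), which brings MCT1 to the membrane, and Slc16a6, a transporter linked to ketone body release from liver, were picked for their role after their values had been seen. Signals of Bsg were 12.84 ± 0.30 (SD, n = 3) and 12.72 ± 0.11 (SD, n = 4), which gives a difference of -0.12 (adjusted p = 0.806 in limma's fit). Slc16a6 differed by 0.04 (adjusted p = 0.955). Neither sign was stable when single mice were left out.

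Oxct1, the succinyl-CoA transferase that activates acetoacetate for burning, showed the largest difference of the 5 genes and was the 1 whose groups did not overlap. WT livers read 7.21, 6.36 and 7.28. SHIVA livers read 7.30, 7.84, 7.29 and 7.48. The gap between the highest WT and the lowest SHIVA liver was 0.0083, far below the SD of either group, and WT replicate 2 lay well under all others. As 12.2% of all genes tested showed no overlap, 1 gene of 5 is not a result about these genes.

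Mean Oxct1 was thus 6.95 ± 0.51 (SD, n = 3) without and 7.48 ± 0.26 (SD, n = 4) with the mutation. The difference was 0.52 (SE 0.25, adjusted p = 0.425 in limma's fit), a ratio of 1.44 with a 95% interval from 0.963 to 2.15. Without WT replicate 2 the difference was 0.23 (adjusted p = 0.816), the lowest of its alternatives, and without WT replicate 3 it was 0.69 (adjusted p = 0.230), the highest. The direction was the same in all 17 alternative fits of Oxct1, with adjusted p-values from 0.167 to 0.816. As the groups did not overlap, leaving out a mouse could hardly change that direction. Fits that altered only the filter on dim probes, the probe averaging or the test gave the same 0.52 by construction.

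Since hepatocytes have little Oxct1, markers of other liver cells were set beside it. The 6 Kupffer cell markers (Adgre1, Cd5l, Clec4f, Marco, Timd4 and Vsig4) were above background on all arrays, and all 6 had a higher mean in SHIVA livers, with 0 called. Differences were 1.54 for Marco, 0.78 for Adgre1 and 0.66 for Cd5l, but 0.21 for Timd4, 0.09 for Clec4f and 0.07 for Vsig4. The mean log2 signal of the 6 markers was 10.41, 9.85 and 11.17 in WT livers and 11.24, 11.57, 10.87 and 10.46 in SHIVA livers. It was lowest in WT replicate 2 and highest in SHIVA replicate 2, the same livers as for Oxct1. The part of Kupffer cells in the Oxct1 difference was not tested.

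All 5 neutrophil markers on the array had a higher mean in SHIVA livers, with 0 called, and their mean was 4.58 to 5.82 in WT livers, 7.73, 7.78 and 8.12 in SHIVA replicates 1 to 3 and 4.42 in SHIVA replicate 4. In that liver, where Oxct1 was the second highest of all, both the neutrophil and the Kupffer cell mean were the lowest among the mutants. Mpo and Ngp, their granule proteins, were above background on 3 arrays each, so that the means mix detected and undetected signals. Mpo read 1.18 to 1.24 in WT livers and 6.19 to 6.98 in SHIVA replicates 1 to 3. Camp, S100a8 and S100a9 were above background on all arrays and differed less. S100a9 read 9.81, 8.10 and 7.97 in WT livers and 10.32, 10.33, 10.40 and 7.63 in SHIVA livers. Endothelial markers ranged from 9.53 to 9.64 in WT and 9.58 to 9.76 in SHIVA livers, and stellate cell markers from 6.93 to 7.46 and 7.05 to 7.32. The skeletal muscle markers, of a tissue rich in Oxct1, gave a mean of at most 2.38 on any array.

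**Figure D4:**
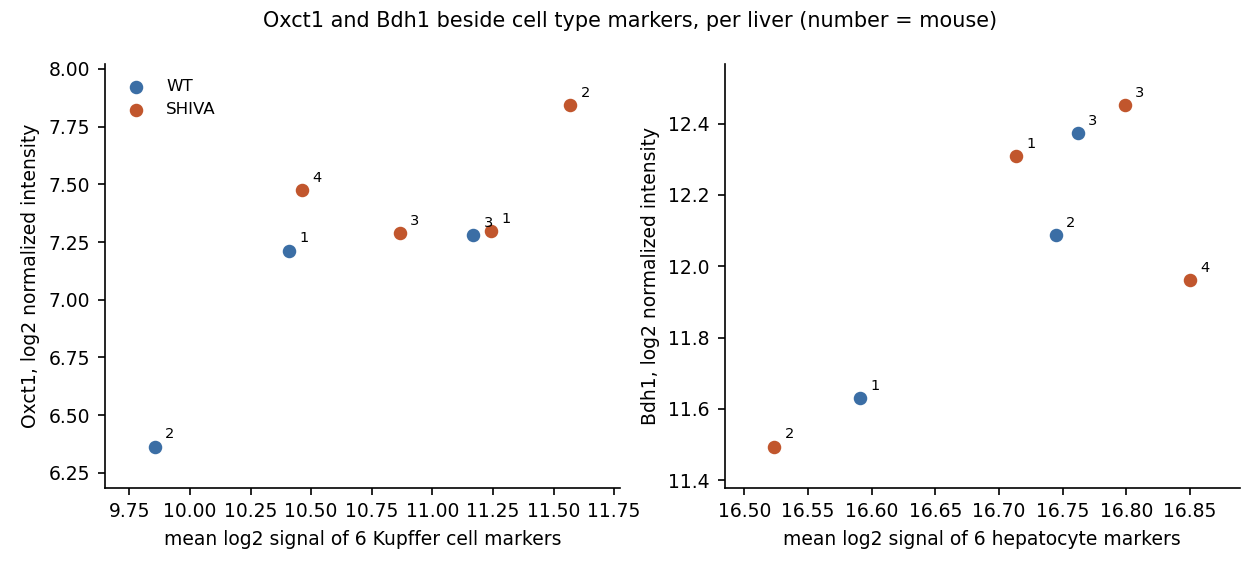
Oxct1 against the mean log2 signal of 6 Kupffer cell markers (left) and Bdh1 against that of 6 hepatocyte markers (right), 1 point per fasted liver with its mouse number, WT in blue and SHIVA in orange. WT replicate 2 is lowest and SHIVA replicate 2 highest on both axes of the left panel, and SHIVA replicate 2 and WT replicate 1 are lowest on both axes of the right one.

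Other enzymes that make or use acetoacetate and acetoacetyl-CoA were mixed. Of 8, 5 were tested and 0 passed, with 2 lower and 3 higher in SHIVA livers and a median of 0.42. Acat2 and Acat3, both among the higher ones, may not be read apart, and the median is the value of Acat3. Bdh2, a cytosolic dehydrogenase named for its likeness to Bdh1, read 9.33, 8.82 and 9.37 in WT livers and 9.91, 10.15, 10.03 and 9.98 in SHIVA livers. All 4 mutants were above all WT livers. The difference was 0.85 (SE 0.17, adjusted p = 0.110 in limma's fit), a ratio of 1.80, and the adjusted p ranged from 0.0342 to 0.291 over 17 alternatives, 3 of them under the threshold. Acat2, the cytosolic thiolase of sterol synthesis, differed by 0.50 (adjusted p = 0.460), a value that was 0.85 without WT replicate 3 and that is uncertain because its near-identical neighbour Acat3 (0.42, adjusted p = 0.511) can hybridize to the same probe.

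Of 10 regulators of ketogenesis, 0 passed, with 7 lower and 3 higher and a median of -0.11. Ppara, the nuclear receptor that drives fasting gene expression, read 12.19, 12.61 and 12.33 in WT livers and 11.66, 11.75, 11.64 and 11.78 in SHIVA livers. The groups were apart, and the difference of -0.67 (SE 0.15) had an adjusted p of 0.132 in limma's fit, which ran from 0.0315 to 0.338 over its alternatives. Fgf21, a fasting hormone from the liver, read 7.30, 7.76 and 4.58 in WT livers and 4.37, 5.14, 3.77 and 4.48 in SHIVA livers. WT replicate 3 was within the mutant range. The difference of -2.11 (adjusted p = 0.250) was -3.09 (adjusted p = 0.0142) without that mouse, with adjusted p-values from 0.0142 to 0.585 over its alternatives.

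Acat1 also takes part in isoleucine breakdown, of which 11 genes, with leucine breakdown, were tested and 0 passed, at a median of 0.08. Hsd17b10, the step before Acat1, differed by -0.44 (adjusted p = 0.417 in limma's fit), and Ivd, an early step of leucine breakdown, by 0.40 (adjusted p = 0.311). Of 4 genes for lactate and pyruvate, which share carriers with ketone bodies, 0 passed. Mpc1 and Mpc2, subunits of the mitochondrial pyruvate carrier, differed by -0.25 and -0.17 (adjusted p = 0.530 and 0.674).

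The genes whose log2 signal followed each member most closely were read off 13146 candidates above background on all 7 arrays, as a description over 7 livers that share 1 slide. They were Rac1, Gm16434 and Hyou1 for Bdh1, with r of 0.998, 0.997 and 0.996. They were Prrt1, Rbm8a and 5730409E04Rik for Acat1 (0.989, 0.984 and 0.962), and Rbm4, Gm8675 and 3110040N11Rik for Oxct1 (0.996, 0.988 and 0.987). Slc16a1 was followed by Rn28s1, Olfr1509 and Sox10 (0.977, 0.974 and 0.973), and Slc16a7 by Zpbp2, Septin9 and Map3k6 (0.985, 0.967 and 0.967). None of the 15 was a gene of the pathway lists. All were picked for the height of r, which 7 points among so many candidates leave high by the choice itself.

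The 5 differences were also computed under every alternative in processing and with each mouse left out, 87 fits in all. None put a member past the threshold, the smallest adjusted p being 0.167. Oxct1 stayed above 0 and Slc16a1 and Slc16a7 below 0 in each, whereas Bdh1 took both signs and Acat1 changed sign once, without WT replicate 2. Not every fit could change a sign, as those that altered only the filter on dim probes or the test left each difference as it was.

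**Figure D5:**
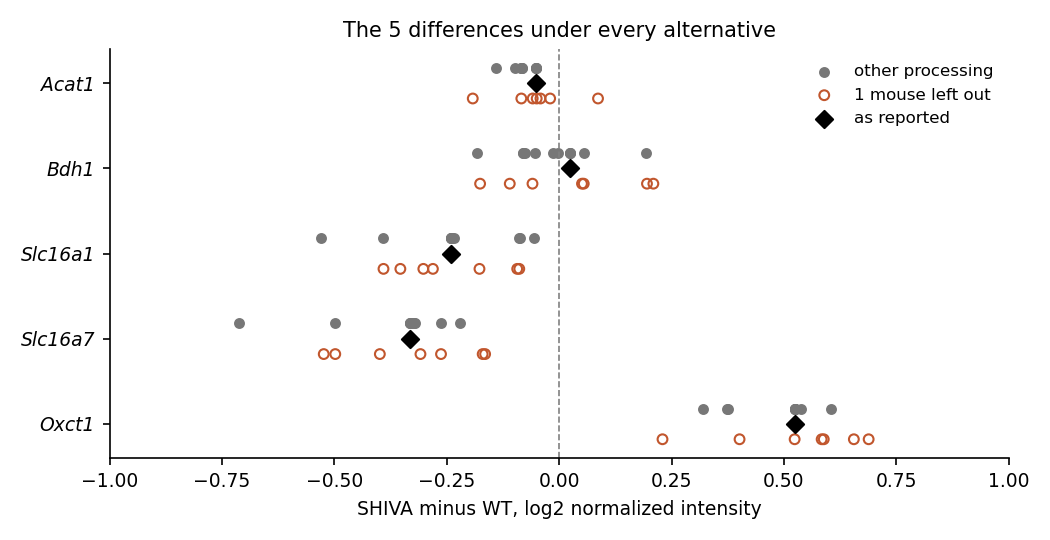
Difference between SHIVA and WT livers (log2 normalized intensity) of each member as reported (diamond), under other processing (grey) and with 1 mouse left out (open orange circles). Bdh1 falls on both sides of 0, and Oxct1 ranges from 0.23 to 0.69.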

How the data were processed

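For each of 7 livers the authors deposited scanner output from Agilent Feature Extraction 10.5.1.1, whose processed intensity had been detrended but not normalized between arrays per the file headers, with flags for background and outliers, and their own quantile normalized values on the log2 scale. Here flagged spots (120 to 163 per array) were left out, processed intensities were quantile normalized and put on the log2 scale, spots of a probe were averaged, and the brightest probe stood for a gene. Probe names were updated by accession to GRCm38.p6. Genes well above background on at least 3 arrays were tested with limma 3.58.1 in R 4.3.3 with Benjamini-Hochberg adjustment over all genes tested and a threshold of 0.05. The steps were tested on simulated data.

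Members and gene lists were chosen with earlier results of these data known. Text names the members, Sox17, genes of the ketogenic enzyme list, some of which are not reported here, of each other list any called gene and the 2 largest differences, and for each member the 3 genes most correlated with it. Alternatives were the 75th percentile scaling, mean signal without or with normexp correction (offset 50), the authors' table, other filters on dim probes, all probes averaged, single probes, array weights, a block for the replicate number, each mouse left out and the methods' t-test.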

Additional observations from a re-analysis of the deposited data

Results flagged for a closer look

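Of 38 genes searched within the 4 SHIVA livers, 1 had a mouse far from the other 3, where chance gives about 1.9. For Acat2, SHIVA replicate 2 was the low one at 12.81, and the other mutants read 13.14 to 13.17.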

How the results depend on the processing

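The count of members past the threshold was 0 in every alternative. Fits that altered only the filter on dim probes or the test could not change a sign. In all, 76 of the 87 fits of single members kept the sign of the main fit. Of the 11 that did not, 10 were of Bdh1. They included -0.014 with 75th percentile scaling, -0.081 with normexp correction, -0.081 with the mean signal and -0.077 in the authors' table. All Bdh1 probes averaged gave -0.054, its single other probes -0.18 and -0.0037, and 3 fits with a mouse left out were also reversed. Over all 7 fits with a mouse left out, Bdh1 ranged from -0.18 to 0.21. Acat1 ranged from -0.19 to 0.086 with a mouse left out. Among other genes, Slc16a6 was -0.40 with all probes averaged, where its second probe was not above background on any array, and -0.088 to 0.18 with a mouse left out, and Bsg was -0.27 to 0.027.

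The count of 75 genes called (37 higher, 38 lower) became 141 with the mean signal, 129 in the authors' table, 13 with no filter on dim probes, 393 with array weights, 0 with the methods' t-test (2301 at an unadjusted p under 0.05), and 3 (without WT replicate 1) to 423 (without WT replicate 3) with a mouse left out; with normexp it was split 27 higher to 44 lower. Without WT replicate 2 the count was 8, without SHIVA replicate 1 it was 7 and without SHIVA replicate 3 it was 13. A pairing of mice by replicate number was not shown. Deviations from the group means correlated at -0.05, 0.01 and 0.24 for same-numbered mice and at -0.20 to 0.20 for others. These few values cannot exclude a pairing. With the replicate block 32 genes were called, no member among them. The causes were not tested.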
